A study of Mus musculus with 12 samples.

Results

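Lipid droplet proteins and lipases were examined in epidermal scrapings of mice with and without epidermal Pparg. The 10 genes asked for by name were the perilipins Plin1 to Plin5, the CIDE proteins Cidea and Cidec, and the lipases Pnpla2, Lipe and Mgll. Of these, 9 were among the 14533 genes listed in the count table, and Plin5 was not among them. RNA-seq was performed on 12 mice, 1 library per mouse, with 6 WT and 6 Pparg-/-epi mice. All 12 were C57BL/6 mice carrying Pparg (flox/flox). Pparg-/-epi mice were Cre+/- for a Cytokeratin14 promoter-driven Cre, which is active in keratinocytes of the epidermis and its appendages, whereas the WT siblings were Cre-/-. No mouse was treated, and the skin was non-lesional. WT mice (3 female and 3 male) were 8 to 13 weeks old by the labels, as were Pparg-/-epi mice (4 female and 2 male), and the study's methods and run information give other ages for some mice. Frozen dorsal skin was scraped down to the superficial vessels of the dermis, so a scraping can hold sebaceous gland, dermis and, below it, fat or muscle in amounts that vary from mouse to mouse. Total counts were 10120840 to 18851255 per library, and 1 count was worth 0.0520 to 0.107 CPM (counts scaled to a common library size by TMM). The Pparg counts could not check the labels, since recombination leaves a shortened transcript that is counted with the whole one (log2 fold change -0.10, standard error 0.71, adjusted p = 0.949).

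Triglyceride is stored in lipid droplets, whose surface is coated by perilipins. Plin2 and Plin3 are found in most cell types, Plin1 and Plin4 mainly in adipocytes, and Plin5 in oxidative tissues such as muscle and heart. Cidea and Cidec promote the growth of droplets, Cidec in white fat and Cidea in brown fat and sebocytes. Stored triglyceride is hydrolyzed in sequence by Pnpla2 (adipose triglyceride lipase), Lipe (hormone-sensitive lipase) and Mgll (monoacylglycerol lipase), and Mgll also degrades the endocannabinoid 2-arachidonoylglycerol. In skin these genes are at work in sebocytes, which fill with droplets before they burst, and in the adipocytes of the subcutis, and many of them are known targets of PPARγ in fat. The scrapings were therefore examined mouse by mouse, beside genes of sebocytes and of white fat.

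Of the 9 members, Mgll was the only one altered, and it was lower in Pparg-/-epi mice. Altered here means shifted by at least 0.6 on the log2 scale, up or down, with an adjusted p under 0.05 (edgeR quasi-likelihood test, Benjamini-Hochberg adjustment over all 14533 genes). Thus 1 of 9 members was altered, where 10.3% of all genes were (1493 genes, or 2249 without WT mouse 2). In the downward direction this was 1 of 9 against 5.08% of all genes, and in the upward direction 0 of 9 against 5.19%. At an unadjusted p under 0.05 there were 4 of 9 members and 29.5% of all genes, with Mgll, Cidea and Plin3 lower and Lipe higher, and DESeq2 altered 1 member, again Mgll. The log2 fold change was below 0 in 8 of the 9 members, with a median of -0.96, and the median over all genes was -0.01. Several of these signs depended on WT mice 2 and 5. Without those mice, Plin1 (1.96), Cidec (2.00), Pnpla2 (0.08) and Plin4 (0.02) lay above 0 beside Lipe. Plin2, Plin3, Cidea and Mgll stayed below 0. In bulk tissue, fewer cells of a type and less RNA per cell cannot be told apart.

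**Figure D1:**
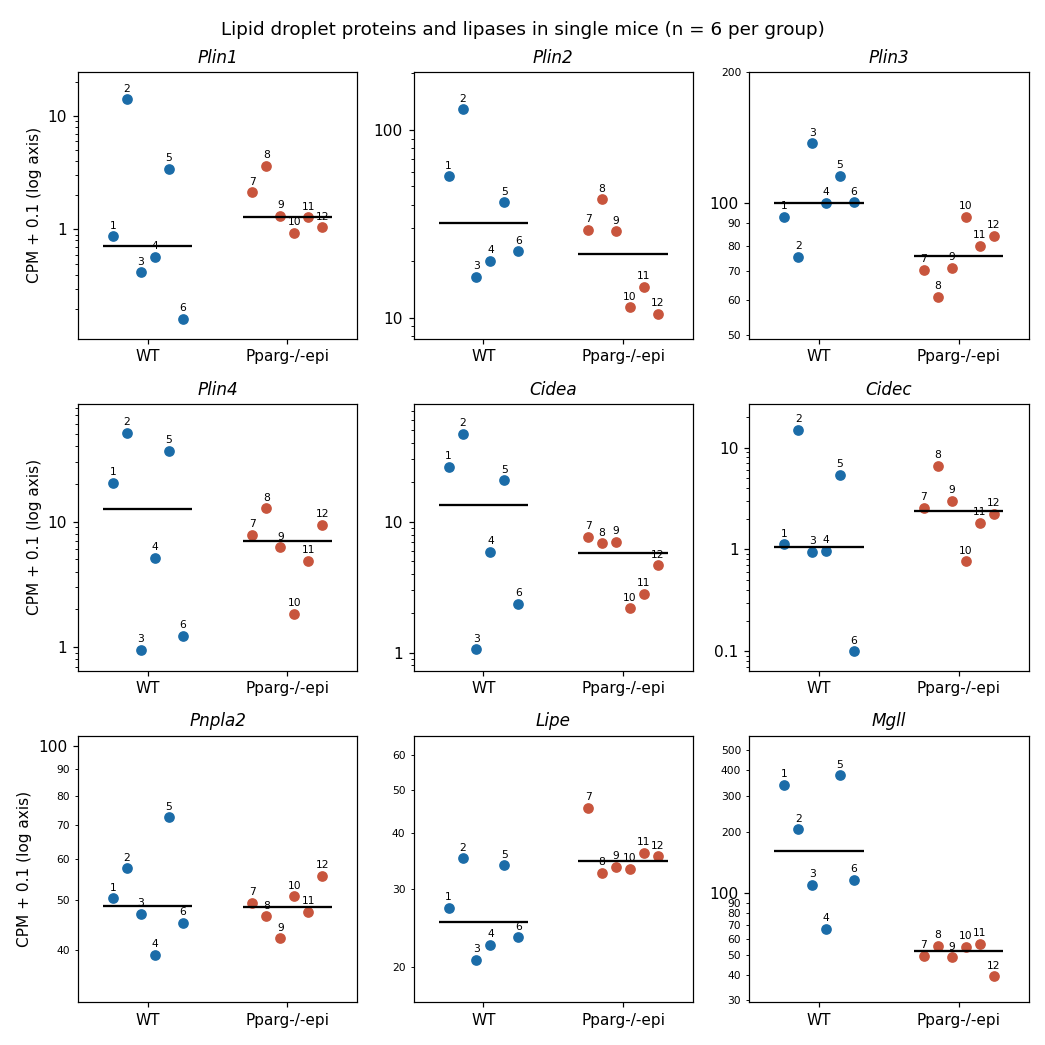
Level of each of the 9 listed members in every mouse, as CPM + 0.1 on a log axis, for WT (blue) and Pparg-/-epi (red) mice. Points are mice with their number and horizontal lines are medians of 6 mice. Mgll is the only member in which the groups do not overlap, and in Plin1, Plin4, Cidea and Cidec the WT mice spread far more widely than the Pparg-/-epi mice.

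Before the members are described one by one, the makeup of the scrapings has to be shown, since single libraries stood apart. Of the sebocyte enzymes, Fa2h, Scd3, Awat1 and Far2 were highest in WT mice 1, 2 and 5 and lower in every Pparg-/-epi mouse than in any WT mouse, while Awat2, Soat1 and Elovl3 overlapped between the groups. Fa2h, which makes 2-hydroxylated fatty acids in sebaceous glands, was at 191, 209.9 and 181 CPM in WT mice 1, 2 and 5, at 7.25, 26.0 and 15.2 CPM in WT mice 3, 4 and 6, and at no more than 1.90 CPM in Pparg-/-epi mice. Of the 8 sebocyte genes listed, 6 were lower, Elovl3 was not altered, and Krt79 was higher (45.7 to 1335 CPM in WT against 1850 to 3513 CPM in Pparg-/-epi mice). Krt79 is also a keratin of the follicle's upper duct. It made up 99.1% to 99.6% of the summed sebocyte list in Pparg-/-epi mice, so the sum is also given without it: from 33.5 to 1036 CPM in WT mice, and from 11.1 to 25.9 CPM in the Pparg-/-epi group.

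Several white fat genes, Adipoq and Lep among them, followed another order of mice. Adipoq, the adipocyte hormone adiponectin, was at 24.4 CPM in WT mouse 2, 9.76 CPM in Pparg-/-epi mouse 8 and 6.64 CPM in WT mouse 5, and at 0.213 to 4.61 CPM in the other 9 mice. Leptin (Lep) was at 0 counts in WT mice 3 and 6 and highest in WT mouse 2, at 5.89 CPM. Not all genes of the list shared this order. Fabp4 was highest in Pparg-/-epi mouse 8 (137 CPM), before WT mouse 2 (117 CPM). Adrb3 was highest in WT mouse 6 (21.5 CPM) and lowest in Pparg-/-epi mouse 8 (4.85 CPM). Of 12 white fat genes listed, 2 were lower in Pparg-/-epi mice (Adrb3 and Sncg) and 10 were not altered. The summed list reached 677 CPM in WT mouse 5, of which 81.1% was Car3. That library also held skeletal muscle RNA, with a summed muscle list of 10468 CPM where the other 11 mice had 10.8 to 428 CPM. Car3 is made in muscle as well as in fat, so the fat sum is also given without it. It then ran from 32.6 to 266 CPM among WT, highest in mouse 2, and from 29.9 to 196 CPM among Pparg-/-epi mice. Single genes led this shortened sum too. Adrb3 was 19.7 of 34.9 CPM in WT mouse 3 and 21.5 of 35.9 CPM in WT mouse 6. Fabp4 was 137 of 196 CPM in Pparg-/-epi mouse 8. Of 6 brown fat genes only Elovl3 was listed, and it is a sebocyte gene too.

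**Figure D2:**
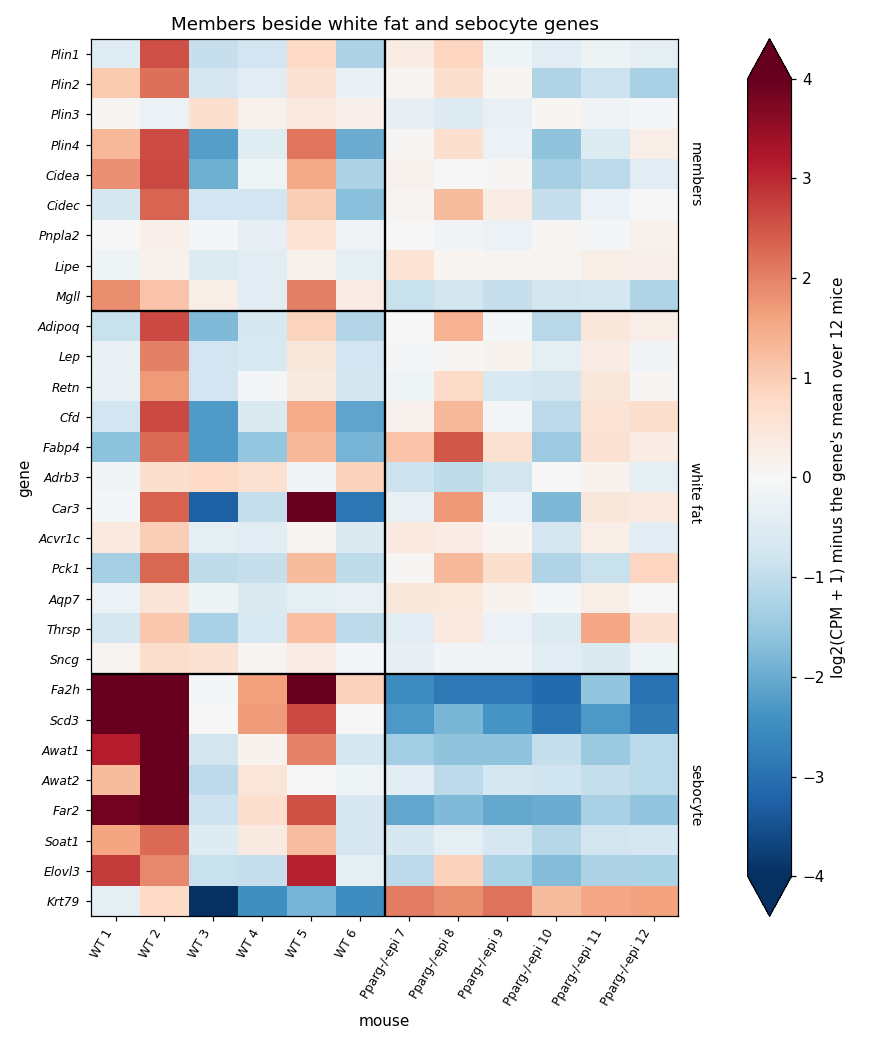
Heat map of the 9 members (top block), 12 white fat genes (middle block) and 8 sebocyte genes (bottom block) in 12 mice. Color gives log2(CPM + 1) minus the gene's mean over the 12 mice, with the scale ending at 4 in either direction. WT mice 1, 2 and 5 are red in most of the sebocyte block other than Krt79. WT mouse 2 and, more weakly, WT mouse 5 and Pparg-/-epi mouse 8 are red in most of the fat block.

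Of the lipases, Mgll is described first. Mgll (chromosome 6, 88724412 to 88828360 of mm10, forward strand) was at 66.6, 160.5 and 377 CPM (lowest, median and highest) in WT mice and at 39.2, 52.1 and 56.4 CPM in Pparg-/-epi mice. Every Pparg-/-epi mouse lay below every WT mouse, and the Pparg-/-epi mice were close to each other whereas the WT mice were not. The mean was 202 ± 129 CPM in WT against 50.6 ± 6.47 CPM in Pparg-/-epi mice (SD, n = 6 each), which gave 4.00 times more in WT (log2 fold change -2.00, standard error 0.37, adjusted p = 0.00393). Groups that do not overlap were seen in 1 of 9 members and in 7.9% of all genes. WT mice 1 and 5 were highest, at 340 and 377 CPM, followed by WT mouse 2 at 205 CPM, so the 3 mice with the most Fa2h also had the most Mgll.

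The difference in Mgll was not limited to those mice. WT mice 3, 4 and 6, in which Fa2h was lower, had 109.9, 66.6 and 116 CPM, still above the Pparg-/-epi range. Their Fa2h, at 7.25, 26.0 and 15.2 CPM, was also above that range, which ended at 1.90 CPM. The part of sebocyte content in the Mgll difference was not tested. Mgll was altered when any of the 12 mice was left out, with log2 fold changes of -2.18 to -1.73. It was -1.67 (adjusted p = 0.00954) without WT mice 2 and 5, and -1.65 (adjusted p = 0.00520) with the summed muscle list as a covariate. The mouse names carry a breeding number, whose meaning the labels do not give, and the log2 fold change was -2.38 (adjusted p = 0.00594) among earlier numbers (2 WT and 4 Pparg-/-epi mice) and -1.82 (adjusted p = 0.137) among later ones (4 WT and 2 Pparg-/-epi mice).

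No promoter bases were measured here, but the sequence upstream of Mgll is shown because it was the only altered member. PPARγ binds as a dimer with RXR to a pair of AGGTCA motifs separated by 1 base. The 250 bases before each annotated start site (RefSeq, GRCm38.p6, the assembly of mm10) were searched for AGGTCA on both strands, in 13 windows of 9 genes, which were the listed members other than Cidea, not searched here, and Plin5. AGGTCA was found in 2 of the 13 windows, 1 of Plin2 and 1 of Plin5, against 14% of the 32851 windows of all genes, and the exact pair was found in none of the 13 and in 0.0335% of all windows. These letters are absent from the Mgll window chr6:88724162-88724411 (forward strand), written 5′ to 3′, which only says that this stretch does not spell them.
Mgll: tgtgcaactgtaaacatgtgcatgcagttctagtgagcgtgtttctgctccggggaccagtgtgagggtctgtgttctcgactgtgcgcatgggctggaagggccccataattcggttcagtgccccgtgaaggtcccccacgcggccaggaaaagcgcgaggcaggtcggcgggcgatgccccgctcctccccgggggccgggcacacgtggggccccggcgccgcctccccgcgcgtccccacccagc

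Pnpla2, which starts the breakdown of triglyceride, differed little between the groups. Pnpla2 (chromosome 7, 141455188 to 141460743, forward strand) was at 38.9, 48.6 and 72.5 CPM (lowest, median and highest) in WT mice and at 41.97, 48.3 and 55.6 CPM in Pparg-/-epi mice. The groups overlapped over nearly their whole range, and WT mice 5, 2 and 1, the 3 with most Fa2h, were the 3 highest of the WT mice, WT mouse 5 with muscle RNA foremost. The log2 fold change was -0.10 (standard error 0.14, adjusted p = 0.693), with an approximate 95% interval of -0.40 to 0.21. Its sign turned to 0.02 without WT mouse 5.

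Lipe, the hormone-sensitive lipase, was the only member with a log2 fold change above 0. Lipe (chromosome 7, 25379527 to 25395987, reverse strand) was at 20.7, 25.1 and 35.0 CPM in WT mice and at 32.4, 34.5 and 45.5 CPM in Pparg-/-epi mice. WT mice 2 and 5 lay within the Pparg-/-epi range and the other 4 WT mice below it. Its log2 fold change of 0.41 did not pass the test (standard error 0.15, adjusted p = 0.0760). Without WT mice 2 and 5, left out after the data had been seen, it was 0.61 (adjusted p = 0.00789) and passed. These were the highest WT mice for Lipe, and leaving them out raises the value. The exons of Lipe overlap those of a gene on the other strand (4732471J01Rik), and the strand setting of the counting is not given in the sources used here.

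Among the perilipins, Plin2 and Plin3 are the general coat proteins. Plin2 (chromosome 4, 86656565 to 86670059, reverse strand) was at 16.4, 31.7 and 128 CPM in WT mice and at 10.4, 21.6 and 42.6 CPM in Pparg-/-epi mice. WT mouse 2 was highest by a wide margin, WT mouse 1 was next at 56.4 CPM, and the groups overlapped. The log2 fold change was -1.06 (standard error 0.52, adjusted p = 0.203) and -0.46 without WT mouse 2. It passed the test with the breeding numbers split into 2 blocks, earlier and later (-1.38, adjusted p = 0.0185). It also passed with RIN as a covariate (-1.34, adjusted p = 0.0292). Of the 75-base stretches of Plin2 transcripts, 0.83% also occur in Gm12551, and none of those of the other listed members occur in another gene. The window before the Plin2 start site (chr4:86670060-86670309, reverse strand) is shown because it was the only one of a listed member to hold the motif, in capitals as its reverse complement and starting 218 bases before the start site.
Plin2: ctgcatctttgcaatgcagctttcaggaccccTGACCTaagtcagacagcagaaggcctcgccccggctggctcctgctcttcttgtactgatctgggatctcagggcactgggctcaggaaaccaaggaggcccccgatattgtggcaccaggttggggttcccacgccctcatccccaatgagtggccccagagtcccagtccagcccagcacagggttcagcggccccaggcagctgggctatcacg

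Plin3 varied least among the perilipins. Plin3 (chromosome 17, 56278962 to 56290511, reverse strand) was at 75.3, 100.3 and 137 CPM in WT mice and at 61.1, 75.5 and 92.9 CPM in Pparg-/-epi mice. WT mouse 2 lay within the Pparg-/-epi range, WT mouse 1 just above its top, and the other 4 WT mice higher. Between genotypes the log2 fold change was -0.44 (standard error 0.14, adjusted p = 0.0528), so that it missed both thresholds, and without WT mouse 2 it was -0.53 (adjusted p = 0.0109), still short of 0.6. Unlike in the other perilipins, WT mouse 2 was the lowest of the WT mice, not the highest.

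Plin1 and Plin4 are the coat proteins of adipocytes, and Plin1 also holds the lipases off the droplet until they are called on. Plin1 (chromosome 7, 79721164 to 79732776, reverse strand) was at 0.0629, 0.619 and 13.9 CPM in WT mice and at 0.832, 1.19 and 3.52 CPM in Pparg-/-epi mice. The mean was 3.14 ± 5.41 CPM in WT against 1.62 ± 1.02 CPM in Pparg-/-epi mice, but the median was lower in WT. WT mouse 2 alone had 262 counts of Plin1, WT mouse 5 had 42, and WT mouse 6 had 1. With all mice the log2 fold change was -0.96 (standard error 0.94, adjusted p = 0.547), and without WT mouse 2 it turned to 0.72 (adjusted p = 0.4997). Without WT mice 2 and 5, left out after the data had been seen, it was 1.96 (adjusted p = 0.0458). These were the highest WT mice for Plin1, and leaving them out raises the value, so this pass is no test of genotype. Without WT mouse 5 alone the log2 fold change was -0.95, so the sign of Plin1 turned on WT mouse 2, in which Adipoq was also highest.

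Plin4 (chromosome 17, 56100591 to 56109802, reverse strand) was at 0.852, 12.6 and 50.7 CPM in WT mice and at 1.75, 6.91 and 12.6 CPM in Pparg-/-epi mice. WT mice 2, 5 and 1 were the 3 highest of all mice, at 50.7, 36.5 and 20.1 CPM, while WT mice 3 and 6 were the 2 lowest. For Plin4 the fold change on the log2 scale was -1.44 (standard error 0.84, adjusted p = 0.280), and it was 0.02 without WT mice 2 and 5. WT mouse 5 was the library with muscle RNA. With the summed muscle list as a covariate the value for Plin4 was -1.03 (adjusted p = 0.425). The exons of Plin4 overlap those of Hdgfrp2 on the other strand, with the same limit as for Lipe.

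The CIDE proteins differed from each other in their order of mice. Cidea was at 0.959, 13.2 and 47.1 CPM in WT mice and at 2.08, 5.64 and 7.59 CPM in Pparg-/-epi mice. WT mice 2, 1 and 5 were the 3 highest, in the same order as for Fa2h, and WT mice 3, 4 and 6 lay within or below the Pparg-/-epi range. Between genotypes the log2 fold change was -1.75 (standard error 0.75, adjusted p = 0.137), and -0.81 without WT mice 2 and 5. It was -1.49 (adjusted p = 0.225) with the summed muscle list as a covariate. The Pparg-/-epi mice did not fall to 0: the lowest still had 2.08 CPM, where 3 counts were worth at most 0.271 CPM in the libraries of this group.

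Cidec (chromosome 6, 113424634 to 113435760, reverse strand) was at 0, 0.948 and 14.9 CPM in WT mice and at 0.665, 2.30 and 6.55 CPM in Pparg-/-epi mice. WT mouse 2, Pparg-/-epi mouse 8 and WT mouse 5 were the 3 highest, in the same order as for Plin1 and for Adipoq, and WT mouse 6 had no count, which allows up to 0.189 CPM. With all mice the log2 fold change was -0.48 (standard error 0.93, adjusted p = 0.780), and it turned to 0.78 without WT mouse 2 and to 2.00 (adjusted p = 0.0918) without WT mice 2 and 5. The windows before the start sites of Plin1 (chr7:79732777-79733026) and Cidec (chr6:113435761-113436010), both on the reverse strand, are shown together because these genes ranked WT mouse 2, Pparg-/-epi mouse 8 and WT mouse 5 alike. Neither holds AGGTCA.
Plin1: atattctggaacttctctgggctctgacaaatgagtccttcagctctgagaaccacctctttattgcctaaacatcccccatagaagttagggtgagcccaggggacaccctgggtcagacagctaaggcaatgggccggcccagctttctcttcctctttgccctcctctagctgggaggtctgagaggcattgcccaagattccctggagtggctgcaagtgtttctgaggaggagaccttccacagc
Cidec: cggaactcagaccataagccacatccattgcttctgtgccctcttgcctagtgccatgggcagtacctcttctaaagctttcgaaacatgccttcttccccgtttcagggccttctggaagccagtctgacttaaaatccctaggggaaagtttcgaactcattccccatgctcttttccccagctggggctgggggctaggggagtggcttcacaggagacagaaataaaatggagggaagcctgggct

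**Figure D3:**
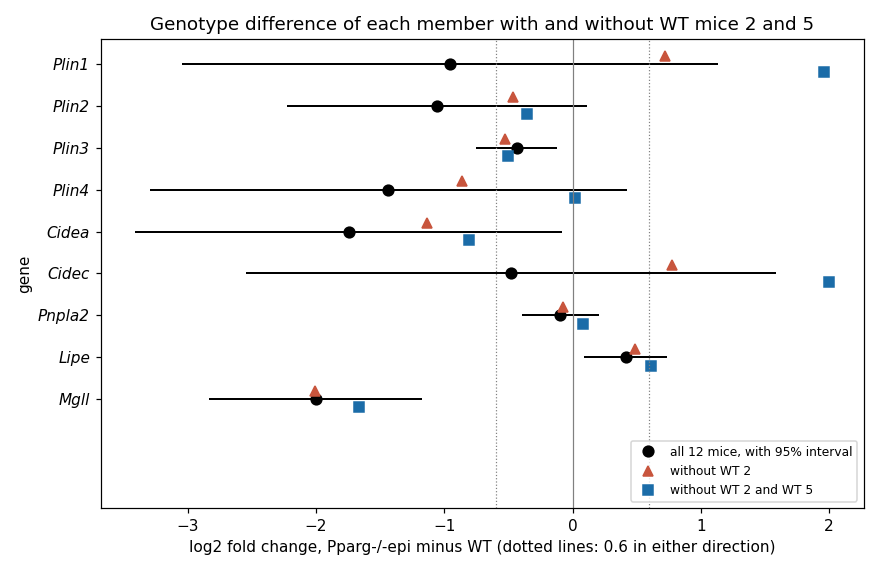
Log2 fold change of each listed member, Pparg-/-epi minus WT, with all 12 mice (black, bars are approximate 95% intervals), without WT mouse 2 (red triangles) and without WT mice 2 and 5 (blue squares). Mgll stays between -2.01 and -1.67, whereas Plin1 and Cidec move from below 0 to 1.96 and 2.00.

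Whether the members varied with sebocyte or with fat genes among mice of a given genotype was then tested. Each gene was fitted on genotype, the log2 summed fat list and the log2 summed sebocyte list together, and a slope of 1 means that the level rose in proportion to the summed list. With the full lists, the slope on the sebocyte list passed an adjusted p of 0.05 in 4 of 9 members and in 9.43% of all genes. Cidea had a slope of 1.03 (standard error 0.12, adjusted p = 0.00173), Plin4 of 0.88, Plin1 of 0.78 and Plin2 of 0.52. The slope on the fat list passed in 0 of 9 members and in 0.0963% of all genes, that is in 14 of them. The 4 members on the sebocyte list became 1 without WT mouse 1, 2 without any one of WT mice 2, 4 and 5 and Pparg-/-epi mice 9 and 11, and 3 or 4 without any other mouse, and 1 member passed on the fat list without WT mouse 2.

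Because Krt79 and Car3 dominated the sums in some mice, the fit was repeated without them, a choice made after the data had been seen. Cidea and Plin4 then passed on the sebocyte list, 2 of 9 members against 1.79% of all genes, with slopes of 0.97 (standard error 0.14, adjusted p = 0.00990) and 0.98 (standard error 0.16, adjusted p = 0.0155). The shortened sebocyte sum spanned 33.5 to 1036 CPM in WT but 11.1 to 25.9 CPM in Pparg-/-epi mice. In the latter it was mostly Soat1, at 8.73 to 15.6 CPM. These slopes therefore rest mainly on the WT mice. Plin1, Plin2 and Mgll had slopes of 0.63, 0.39 and 0.41 with adjusted p of 0.124, 0.117 and 0.102. WT mouse 1 had high sebocyte and low fat genes, and without it the slopes of Cidea and Plin4 were 1.04 and 1.05 with an adjusted p of 1.00 each. Plin4 also missed the threshold without WT mouse 6 (0.88, adjusted p = 0.0647).

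On the fat list without Car3, 0 of 9 members passed, and 0.00688% of all genes did, which is 1 gene. In some mice this sum was mostly Adrb3 or Fabp4, so a slope on it need not follow the amount of fat. The largest fat slopes among members were those of Cidec, 1.14 (standard error 0.32, adjusted p = 0.452), and Plin1, 0.96 (standard error 0.25, adjusted p = 0.404). Cidea had a fat slope of 0.08 (standard error 0.19) and Mgll of -0.12 (standard error 0.17). The slopes of Plin3, Pnpla2 and Lipe lay between -0.08 and 0.10 on either shortened list. With each full list alone beside genotype, 2 members passed on fat (Plin1 and Cidec) and 0.764% of all genes, and 7 passed on sebocytes (all but Pnpla2 and Mgll, with a slope below 0 for Plin3) and 27.2% of all genes. With each shortened list alone, 1 member passed on fat (Plin1) and 0.0413% of all genes, and 7 on sebocytes (all but Pnpla2 and Plin3) and 16.2% of all genes. Mgll was among these 7, with a slope of 0.36 (adjusted p = 0.0291), and in the fit on both shortened lists it passed in 1 of 12 fits that leave out 1 mouse, the one without WT mouse 5 (0.39, adjusted p = 0.0316).

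**Figure D4:**
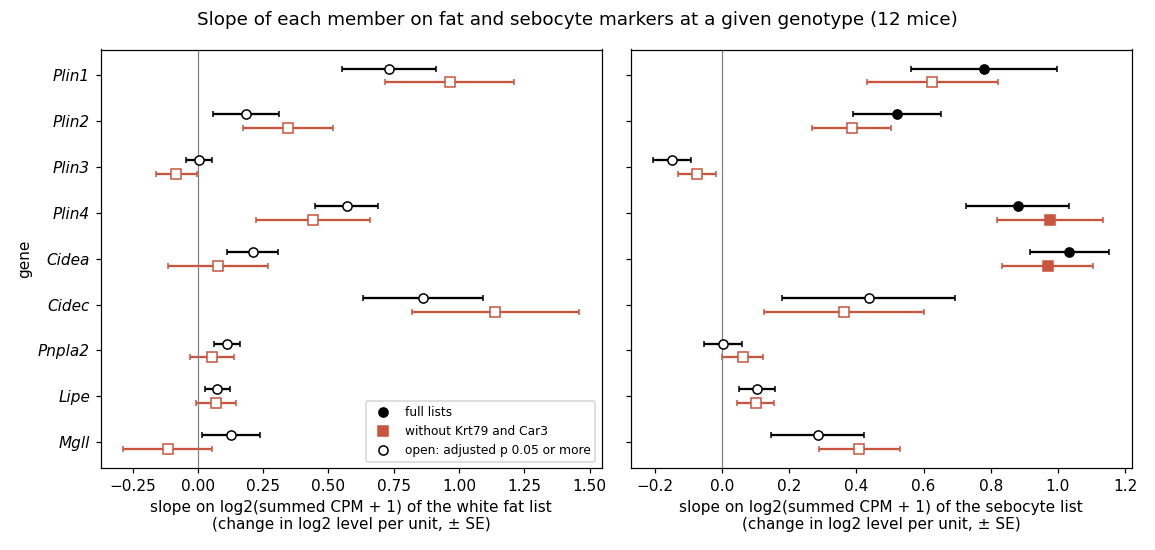
Slopes of each listed member on the white fat list (left) and the sebocyte list (right) at a given genotype in 12 mice, with standard errors, for the full lists (black circles) and without Krt79 and Car3 (red squares). Filled symbols passed an adjusted p of 0.05: Plin1, Plin2, Plin4 and Cidea on the full sebocyte list, Plin4 and Cidea without Krt79, and none on fat.

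Genes of other dermal cells also differed among mice. The summed smooth muscle list was at 499 and 464 CPM in WT mice 1 and 2, at 31.2 to 91.4 CPM in WT mice 3, 4 and 6, and between 61.0 and 371 CPM in Pparg-/-epi mice. In WT mouse 5 it was 357 CPM, of which 275 CPM was Des, also a gene of skeletal muscle, while Myh11 was at 32.2 CPM there and at 34.8 CPM in WT mouse 4. Col1a1 led the fibroblast list, whose sum was 34533 CPM in WT mouse 1 and 1014 CPM in WT mouse 6, against 5324 to 11169 CPM in Pparg-/-epi mice. The endothelial list, led by Pecam1, summed to 5.48 to 132 CPM in WT against 34.6 to 208 CPM in Pparg-/-epi mice, and the macrophage list, led by Lyz2, to 86.9 to 695 and 192 to 375 CPM. The basal keratinocyte list, led by Krt5, was at 9958 to 17573 CPM in WT against 11561 to 16416 CPM in Pparg-/-epi mice, and the suprabasal list, led by Krt10, at 12580 to 38802 and 20542 to 42122 CPM. RNA integrity was 5.9 to 8.6 in WT against 5.7 to 8.6 in Pparg-/-epi mice. The part of these cells in the members' values was not tested.

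To compare members with each other, CPM was divided by gene length in kilobases (RPKM). In WT mice the order of median RPKM was Plin3 (46.5), Mgll (34.7), Pnpla2 (17.9), Plin2 (16.8), Cidea (11.4), Lipe (7.68), Plin4 (2.19), Cidec (0.551) and Plin1 (0.323). In Pparg-/-epi mice Plin3 (35.0) again came first, Pnpla2 (17.8), Plin2 (11.4), Mgll (11.3) and Lipe (10.53) followed, and Cidea (4.85), Cidec (1.33), Plin4 (1.2003) and Plin1 (0.623) came last. By the median, the epidermal scrapings thus held most RPKM of the general coat protein Plin3 and least of the adipocyte coat protein Plin1 in both groups. The lead of Plin3 was not shared by all WT mice, since it was above Mgll in 3 of 6. In Pparg-/-epi mice Plin3 was above Pnpla2, the next in order, in 6 of 6. No pair of neighbors in either order differed at an adjusted p under 0.05 (exact paired permutation test, two-sided, 16 pairs). The smallest unadjusted p that 6 mice allow is 0.03125, which 3 WT pairs and 3 Pparg-/-epi pairs reached. Adjusted within each group, these pairs had a p of 0.0833, so this test could hardly have found a few neighbors to differ. Mgll was above Pnpla2 in 6 of 6 WT mice, and among Pparg-/-epi mice Mgll, Plin2 and Lipe did not differ beyond their spread.

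**Figure D5:**
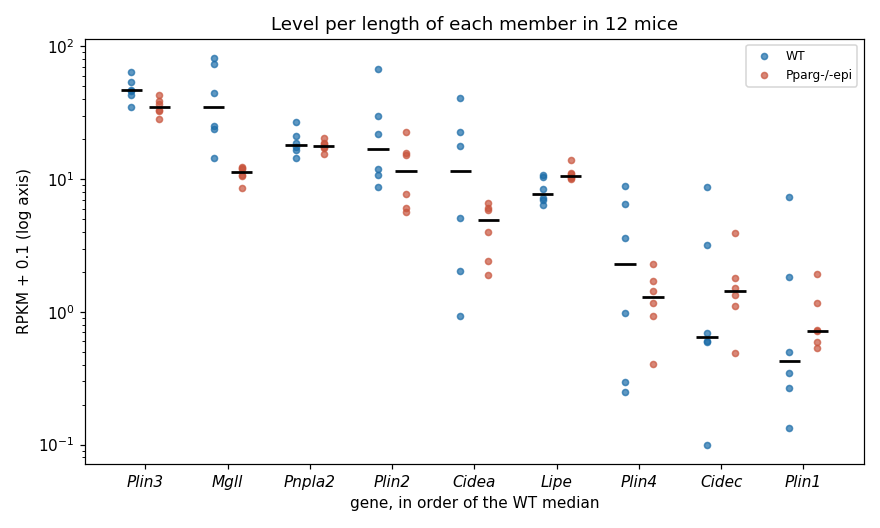
RPKM + 0.1 of each listed member on a log axis in WT (blue) and Pparg-/-epi (red) mice, ordered by the WT median. Points are mice and black lines are medians of 6 mice: Plin3 has the highest median in both groups, though it overlaps with Mgll in WT mice, and Mgll drops from a median of 34.7 to 11.3.

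For each member, the genes outside the list with the most similar levels over the 12 mice were named by Pearson's r of log2 CPM. For Mgll these were Acoxl (0.96), Lhpp (0.95) and Echdc1 (0.94). Plin1 was most like Chpt1 (0.96) and Lpl (0.95), the lipoprotein lipase of adipocytes, and Cidec most like Hp (0.96) and Abcd2 (0.94). Plin4 was most like Gpd1 (0.95), Cidea like Sorbs3 (0.95), and Plin2 like Fmod (0.96), a matrix protein of connective tissue. Plin3 was most like BC029214 (0.98), Lipe like Slc5a8 (0.92) and Pnpla2 like Stac3 (0.89). All mice of both genotypes enter each r, so a shared genotype difference raises it.

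Around the members, 55 of 69 other genes of triglyceride storage and breakdown were listed. Of these, 2 were higher, 6 lower and 47 not altered, with a median log2 fold change of -0.24. Of all genes, 5.19% were higher and 5.08% lower. In the list of lipases and esterases (21 genes, 2 higher and 4 lower), Daglb fell with no overlap between groups, from 43.5, 64.5 and 68.3 CPM in WT to 17.9, 23.2 and 29.3 CPM in Pparg-/-epi mice (log2 fold change -1.33, adjusted p = 0.000276). Daglb and its relative Dagla (-1.01, adjusted p = 0.0239) make 2-arachidonoylglycerol, the lipid that Mgll degrades. Ces1d, a carboxylesterase that acts on stored triglyceride, was lower with a log2 fold change of -4.14, as was Pnpla5, a patatin-like lipase, with one of -4.74 (adjusted p = 0.00599 and 0.00716). Both were highest in WT mouse 2, at 52.96 and 30.2 CPM, followed by WT mice 1 and 5. Dagla and Pnpla5 were named after their values had been seen.

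The rises were both in lipases of the epidermis. Pnpla1, needed for the acylceramides of the skin barrier, rose from 71.3, 87.6 and 95.2 CPM to 107, 146 and 158 CPM (log2 fold change 0.72, adjusted p = 0.000965), and Lipk, an acid lipase of the upper epidermis, from 29.9, 37.6 and 46.7 to 56.5, 77.6 and 83.9 CPM (0.96, adjusted p = 0.00106). Neither gene showed any overlap between the groups. The most abundant lipase, Lipm, was at 478 ± 137 CPM in WT against 393 ± 95.4 CPM in Pparg-/-epi mice (log2 fold change -0.28, adjusted p = 0.403), and Pnpla3 had a log2 fold change of -0.23 and Pnpla8 of -0.05.

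Among 9 listed partners of the lipases, Pla2g16, a phospholipase found at droplets, was lower (log2 fold change -1.53, adjusted p = 0.00439) and 8 were not altered. Abhd5, the activator of Pnpla2, was at 157 ± 31.7 CPM in WT against 162 ± 36.7 CPM in Pparg-/-epi mice (log2 fold change 0.05, approximate 95% interval -0.34 to 0.43). Prkaca, a catalytic subunit of protein kinase A, differed by -0.03 on the log2 scale, with an adjusted p of 0.852. Of 14 listed genes of droplet formation, Ldah, a droplet-associated hydrolase, was lower, from 95.9, 151 and 164 CPM to 46.5, 58.0 and 67.3 CPM (log2 fold change -1.30, adjusted p = 0.000256) with no overlap, and the most abundant, Rab18, was not altered (-0.33, adjusted p = 0.154), nor were Vps13a (-0.28) and Aup1 (-0.02). Of 11 listed genes of triglyceride synthesis, none was altered, against 4 at an unadjusted p under 0.05, as were 29.5% of all genes. Dgat2, which adds the last acyl chain, was at 354 ± 87.8 CPM in WT against 237 ± 44.6 CPM in Pparg-/-epi mice (-0.58, adjusted p = 0.0551), and Agpat5, Agpat4 and Agpat3 had log2 fold changes of 0.14, -0.50 and 0.41. Without WT mouse 2, 13 of these 55 genes were altered, and 2249 of all 14533 genes.

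The genotype difference was compared between sexes by an interaction term in edgeR. No gene passed an adjusted p of 0.05 and 741 genes had an unadjusted p under 0.05, with 0 members in either count. Mgll had a log2 fold change of -1.30 in female mice alone (adjusted p = 0.0610) and -2.57 in male mice alone (adjusted p = 0.154), and the interaction of -1.25 (standard error 0.66) had an adjusted p of 0.895. With 2 male Pparg-/-epi mice, a difference between sexes of this size was not detectable.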

How the data were processed

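Reads were aligned by the authors with STAR 2.5.2b to mm10, poorly and multiply mapped reads were removed, and reads were counted per gene with featureCounts (Subread 1.5.1). The deposited values are raw counts of 14533 genes in 12 libraries, each gene above 0.5 CPM in at least 6 mice. In addition, 2800 empty rows were dropped. Libraries were matched to mice by the library names, for Pparg-/-epi mice 11 and 12 through the study's run information.

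Counts were scaled by TMM and compared with edgeR 4.0.16 (R 4.3.3, quasi-likelihood test, genotype as the only term). Alternatives included edgeR's likelihood ratio test, the test of the study's methods, and DESeq2 1.42.0. Slopes came from the same test with log2(summed CPM + 1) of the marker lists added. Intervals are the estimate ± the standard error times the t quantile at 10 degrees of freedom. Log2 CPM used a prior count of 2, and RPKM was CPM per kilobase of the deposited gene length. The scripts were tested on simulated data. Figures were drawn with matplotlib 3.10.9.

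Members and lists were chosen with earlier results of these data known. Named were all members, Pparg, in each pathway list up to 4 altered genes with the lowest adjusted p and the 4 most abundant, fat and sebocyte genes by value or range, the most abundant gene of other lists, and up to 3 genes most like each member. Alternatives were another test, scaling, filter, covariate or block, each sex alone, and each mouse left out. Mice are separate animals, and p-values measure the spread between mice taken as independent. Several mice of a group share a breeding number, which the tests did not take into account beyond the split into earlier and later numbers. Counting error alone is covered by the limit given for 0 counts (3 counts). Some genes that this rule names are not reported here.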

Additional observations from a re-analysis of the deposited data

Results flagged for a closer look

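Of the members' levels within the 6 mice of a group, 1 lay far from the others. Lipe was at 45.5 CPM in Pparg-/-epi mouse 7 and at 32.4 to 36.0 CPM in the other 5 Pparg-/-epi mice, so that the gap to its nearest neighbor took 0.692 of the whole range of log2 CPM, past the 95% critical value of Dixon's test. Chance flags about 1 in 20 groups, and 9 members were screened in WT and again in Pparg-/-epi mice. A single flag is therefore near what chance gives. Without that mouse the log2 fold change of Lipe was 0.32.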

How the results depend on the processing

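No paired analysis was possible because the groups share no replicate number. The breeding number was shared across groups by 1 pair alone, WT mouse 2 and Pparg-/-epi mouse 10. Within groups, WT mice 3, 4, 5 and 6 all carried the same number, as did Pparg-/-epi mice 8 and 9, and Pparg-/-epi mice 11 and 12. Genotype and breeding number can therefore hardly be told apart. Mgll was lower in all 29 alternatives and altered in 26, the exceptions being female mice alone, male mice alone and later breeding numbers alone, in each of which 0 members were altered. There were 2 members altered with RIN as a covariate and 2 with the breeding number block (Plin2 beside Mgll), and 3 without WT mice 2 and 5 (Mgll lower, Plin1 and Lipe higher), where 1411, 1354 and 1945 of all genes were altered, the last a choice made after the data had been seen, as were the shortened marker lists. Of all genes, 651 were altered in female mice alone, 18 in male mice alone and 131 among earlier breeding numbers, where pathway genes altered numbered 4, 0 and 3. Among later breeding numbers, where Mgll was not altered, 1086 of all genes and 8 pathway genes were. With 1 mouse left out these counts ran from 1116 to 2249 genes and from 7 to 13 pathway genes, both highest without WT mouse 2.

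With age by the labels as a covariate, Plin1 moved to -0.32 and Cidec to -0.20. Some directions turned. The log2 fold changes of Plin1 and Cidec were 0.21 and 0.39 with the white fat sum as a covariate, 1.96 and 2.00 without WT mice 2 and 5, 0.021 and 0.14 among later breeding numbers, and from -1.36 to 0.72 and from -0.97 to 0.78 with 1 mouse left out. Plin4 was at 0.018 without WT mice 2 and 5. Pnpla2 was at 0.083 without those mice, 0.0064 among later breeding numbers and from -0.17 to 0.023 with 1 mouse left out. The cause was not tested.

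Members whose slope passed numbered 2 on fat and 7 on sebocytes with each list alone, 2 on sebocytes without Krt79 and Car3, and 0 to 1 on fat and 1 to 4 on sebocytes with 1 mouse left out. The fat slope of Plin3 was -0.072 with that list alone, -0.082 without Krt79 and Car3, and from -0.11 to 0.036 with 1 mouse left out. The fat slope of Mgll was -0.12 without Krt79 and Car3 and from -0.19 to 0.37 with 1 mouse left out. The sebocyte slopes of Pnpla2 and Mgll ran from -0.022 to 0.054 and from -0.047 to 0.42 with 1 mouse left out. Depth limits Plin1 and Cidec most, with 1 and 0 counts in WT mouse 6.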
